A study of Mus musculus with 11 samples.

Results

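The genes described here encode the proteasome, and they were followed in mouse oligodendrocytes lacking the transcription factor Myrf, in control oligodendrocytes and in oligodendrocyte progenitor cells (OPCs). Members were the array probe sets annotated to a single gene whose symbol is Psma, Psmb, Psmc, Psmd, Psme, Psmf or Psmg followed by a digit. The rule found 103 of 45101 probe sets, which belong to 49 of the 18193 genes named on the array, and it used no measured value. A probe set shared by Psme2b and Psme2 was left out because it names more than 1 gene. Psmc3ip, a partner of meiotic recombination enzymes, and Psme3ip1, a protein that binds the activator Psme3, match the pattern but are not proteasome subunits.

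The 26S proteasome degrades proteins that carry ubiquitin chains. Its 20S core is a stack of α and β rings with the proteolytic sites inside, and its 19S cap binds and unfolds substrates through ATPases, a lid and ubiquitin receptors. Interferon-inducible β subunits can replace the constitutive catalytic ones, dedicated chaperones assemble the rings, and transcription factors such as Nfe2l1 raise proteasome gene expression when proteolysis falls short.

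CKO oligodendrocytes (n = 3 arrays) had the genotype MRF fl/fl; Olig2 wt/cre, in which both Myrf copies are open to deletion by Cre expressed from the Olig2 gene. Control oligodendrocytes (n = 4) were from littermates of genotype MRF wt/fl; Olig2 wt/cre, so they carried the Cre allele too and had 1 Myrf copy open to deletion. OPC arrays (n = 4) are labelled as control with no further genotype. All cells were immunopanned on PDGFRα from brains at postnatal day 7 after microglia were depleted with the lectin BSL1, and were grown with 2% B-27. Oligodendrocytes were taken 4 days after differentiation was induced with 40 ng/ml T3 (thyroid hormone), and OPCs after 6 days in 10 ng/ml PDGF (the growth factor that keeps them dividing). The labels do not state if replicates came from separate cultures or animals; p-values thus reflect only the spread of these arrays, which may be technical.

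The values are MAS 5.0 signals, scaled by the authors to the same trimmed mean on every array, and their precision is limited by the number of arrays. Myrf signals were 2849, 1904 and 2223 on the CKO arrays and 6215 to 7517 on the control oligodendrocyte arrays; whether that probe set lies within the deleted part was not examined. OPC replicate 2 had a Myrf signal of 6848, against 752 to 1135 on the other OPC arrays, and a mean log2 level of 22 cell cycle genes of 10.45 against 12.46 to 12.68. OPC replicates 1 and 4 stood apart in the ratio of 5′ to 3′ signal. Their Gapdh ratios were 0.332 and 0.12, against 1.15 to 1.41 on the other 9 arrays. Their ratios for the dap spike, an RNA added at labelling, were 0.0431 and 0.0251, against 0.223 to 0.476. The member calls against OPCs that were lost or gained without these arrays are named beside the counts.

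Of the 103 member probe sets, 70 had a signal of at least 200 on at least 3 arrays, and 45 of the 49 genes had such a probe set; these 45 were tested. The 4 genes not tested were Psma8 (a testis-type α subunit), Psmb11 (the catalytic subunit of the thymus) and the interferon-inducible catalytic subunits Psmb8 and Psmb9. Each tested gene is represented by its brightest probe set, and 18 of the 45 have more than 1 that passed. A difference is of log2(signal + 16), which understates the change of dim genes, and genes were called at a Benjamini-Hochberg adjusted p under 0.05 over all 10069 genes tested with limma.

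The stretches of 120 bases before the transcription start (RefSeq, GRCm38.p6, 5′ to 3′ on the strand of the gene) are shown for 5 members. Psmb5 and Psmb6 encode constitutive catalytic subunits, Psmd9 is an assembly chaperone, and Psmg1 and Psmg4 are the assembly chaperones that were lower in both kinds of oligodendrocyte under every setting tried. Capitals mark the antioxidant response element core TGANNNNGC, the type of site that Nfe2l1, Nfe2l2 and Nfe2l3 bind with small Maf proteins, on either strand. They lie at chr14:54617996-54618115 (minus strand) for Psmb5, chr11:70525237-70525356 (plus) for Psmb6, chr5:123228070-123228189 (plus) for Psmd9, chr16:95990961-95991080 (minus) for Psmg1 and chr13:34162844-34162963 (plus) for Psmg4.
Psmb5: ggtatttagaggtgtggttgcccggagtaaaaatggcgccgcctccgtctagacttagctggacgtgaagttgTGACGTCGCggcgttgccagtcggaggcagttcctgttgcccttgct
Psmb6: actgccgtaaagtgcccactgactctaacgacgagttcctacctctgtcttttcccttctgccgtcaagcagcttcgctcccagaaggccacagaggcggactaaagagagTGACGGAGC
Psmd9: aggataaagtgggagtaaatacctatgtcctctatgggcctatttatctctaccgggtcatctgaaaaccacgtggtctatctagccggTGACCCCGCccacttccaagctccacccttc
Psmg1: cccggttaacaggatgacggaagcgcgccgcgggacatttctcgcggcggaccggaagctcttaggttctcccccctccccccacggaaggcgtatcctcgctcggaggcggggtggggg
Psmg4: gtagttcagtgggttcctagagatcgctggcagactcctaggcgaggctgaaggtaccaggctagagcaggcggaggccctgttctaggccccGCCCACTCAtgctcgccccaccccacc

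The reference held promoter windows for 41 of the 49 members, 44 windows in all. Within 250 bases before the start, TGANNNNGC on either strand was found in 18 of the 44 member windows (40.9%) and in 35.2% of all 32851 windows. The narrower form TGACNNNGC, added after the first counts were seen and contained in the first motif, was found in 5 member windows (11.4%) and in 10.2% of all windows. Psmb5, Psmb6 and Psmd9 hold it within the stretches shown, at 47, 9 and 31 bases before the start, and Psmc6 and Psmd12 hold it farther out. The CCAAT box (CCAAT) was found in 36.4% of member windows and 33.8% of all windows, and the interferon-stimulated response element core (GAAA, any 2 bases, GAAA) in 3 member windows (Psmb3, Psmd4 and Psmd9; 6.82%) against 2.98% of all. These are matches of letters only.

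In oligodendrocytes lacking Myrf, no proteasome gene passed the test against control oligodendrocytes. Of the 45 genes 0 were called, where 7.53% of all genes were (3.64% higher and 3.88% lower). At an unadjusted p under 0.05 the count was 1 of 45 (2.22%), the catalytic subunit Psmb6, against 21.2% of all genes. The differences ran from -0.35 for the lid subunit Psmd12 to 0.56 for the activator subunit Psme1, and 32 of the 45 were below 0. Their median was -0.11, beside 0.03 over all genes.

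The interval of each difference limits how large a missed change could be. For all 31 constitutive 26S subunits the 95% interval of the CKO minus control difference lay within 1 log2 unit of 0 on both sides, and for 43 of the 45 genes. The 26S subunits had a median difference of -0.13, and 26 of the 31 were below 0, including all 6 ATPases (Psmc1 to Psmc6, which unfold the substrate) and all 3 non-ATPase base subunits and receptors (Psmd1, Psmd2 and Psmd4). The median over the 45 members moved to -0.04 without control replicate 3, to -0.05 without CKO replicate 2, to -0.06 without CKO replicate 1 and to -0.05 with quantile normalization.

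Psmb6, which carries the caspase-like site, had signals of 4446, 4088 and 5116 on the CKO arrays, 5727, 5449, 6063 and 5022 on the control oligodendrocyte arrays and 6920, 6895, 6862 and 7458 on the OPC arrays. A single control array lay within the CKO range, and all OPC arrays lay above every oligodendrocyte array. The CKO minus control difference was -0.29 (95% interval -0.57 to -0.01, adjusted p = 0.219), which did not pass.

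Psme1, an interferon-inducible subunit of the 11S activator that opens the core for peptides, had signals of 1365, 1588 and 1550 in CKO oligodendrocytes, 932, 1148, 774 and 1262 in control oligodendrocytes and 1017, 2135, 1267 and 702 in OPCs. Every CKO array was above every control oligodendrocyte array, while the OPC arrays spanned both. The difference of 0.56 had an adjusted p of 0.33 in the fit of all arrays. With replicate number as a block, which drops control replicate 4, the adjusted p was 0.0305, which made Psme1 the 1 member called there (22.2% of all genes were called in that fit), and it was 0.0663 when only the 2 oligodendrocyte groups were fitted. The probe set shared by Psme2 and Psme2b, the partner of Psme1 and its copy, gave 1398, 1458 and 1758 in CKO and 1232 to 1520 in control oligodendrocytes, which overlap.

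**Figure D1:**
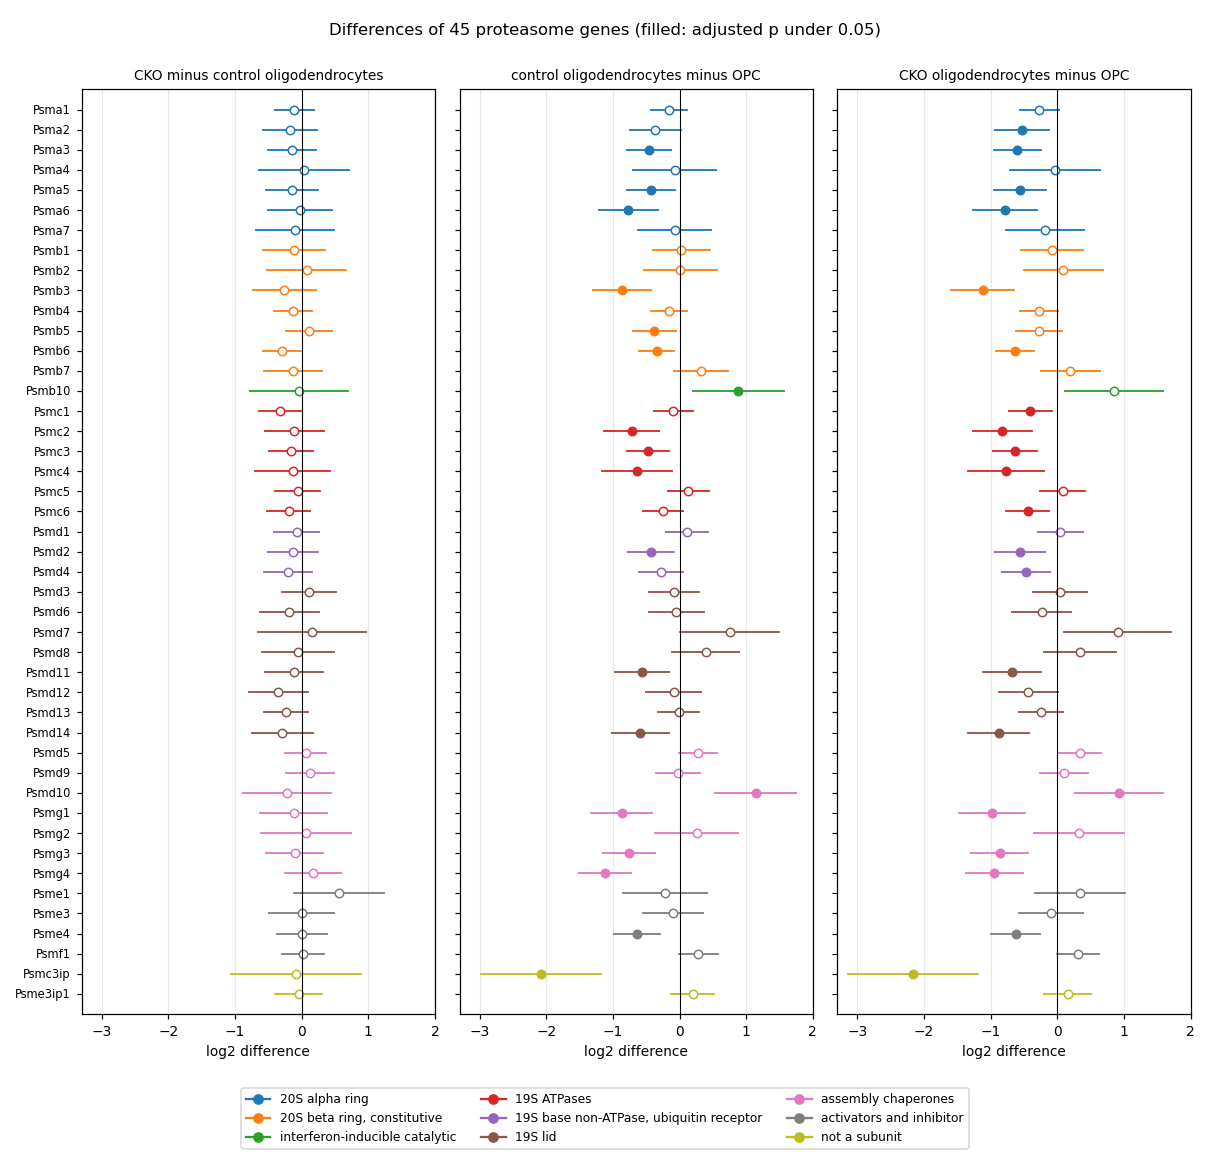
Log2 differences (x axis) of the 45 tested proteasome genes (rows, coloured by role) in 3 comparisons, with 95% intervals as bars and filled points where the adjusted p was under 0.05. No point is filled for CKO minus control oligodendrocytes, 19 are filled for control oligodendrocytes minus OPCs and 21 for CKO oligodendrocytes minus OPCs, nearly all of them left of 0.

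Control oligodendrocytes differed from OPCs at 19 of the 45 proteasome genes (42.2%), against 54% of all genes (24.4% higher and 29.6% lower). Of these 19 genes 17 were lower and 2, the assembly chaperone Psmd10 and the catalytic subunit Psmb10, were higher. The median over the 45 was -0.16, beside -0.09 over all genes. CKO oligodendrocytes differed from the same OPCs at 21 of 45 (46.7%), against 50.6% of all genes (23.8% higher and 26.8% lower); 20 were lower and Psmd10 was higher. The median there was -0.27, beside -0.05. Both comparisons use the same 4 OPC arrays, so they do not give separate evidence.

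Several other measures moved with these comparisons. All 22 cell cycle genes tested were lower in both kinds of oligodendrocyte than in OPCs. In CKO minus control, 16 of the 22 were lower at an unadjusted p under 0.05 (72.7%, against 21.2% of all genes). Of these genes 1 was called there (4.55%, against 7.53% of all genes). The summed signal of 8 astrocyte markers, all 8 past the filter, was 83450.5 to 89824 on the CKO arrays and 55794 to 75636 on the control oligodendrocyte arrays. It was 5074 to 10499 on the OPC arrays. None of the 8 was called in CKO minus control. None of 14 microglia or macrophage markers (highest signal 413.4) and none of 7 endothelial markers (highest 282.8) passed the filter. Of 8 neuronal markers 5 did, with summed signals of 1076 to 1450 in CKO, 1792 to 2584 in control oligodendrocytes and 1342 to 1626 in OPCs. The part of these in the proteasome differences was not tested. In such bulk RNA, fewer cells of a type and less RNA per cell cannot be told apart.

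The count of control minus OPC calls moved by over 1.5 times without OPC replicate 4 (10 genes, 22.2%, against 48.9% of all genes). It also did without OPC replicate 1 (12, 26.7% against 47.1%) and control replicate 1 (11, 24.4% against 45.8%). The same held without control replicate 2 (11, 24.4% against 46.1%) and control replicate 4 (12, 26.7% against 47.8%). The CKO minus OPC count moved so without CKO replicate 2 (12, 26.7% against 39.2%). Without OPC replicates 1 and 4, those of low 5′ to 3′ ratio, 13 genes were called in control minus OPC, 12 lower and 1 higher (28.9%, against 42.6% of all genes). Of these 13, 9 were among the 19. CKO minus OPC then had 19 genes, all lower (42.2%, against 41.5%), of which 15 were among the 21. The calls lost in control minus OPC were Psma3, Psma5, Psmb5, Psmb6, Psmb10, Psmc2, Psmc3, Psmc4, Psmd2 and Psmd14, and those lost in CKO minus OPC were Psma2, Psma5, Psmc1, Psmc4, Psmd2 and Psmd10. The calls gained, all lower, were Psma4, Psmc6, Psmd6 and Psme1 in control minus OPC. In CKO minus OPC they were Psma4, Psmb1, Psmb4 and Psmd6. Without OPC replicate 2, the array with high Myrf, 20 genes (16 lower and 4 higher) and 25 genes (21 lower and 4 higher) were called. These are 44.4% and 55.6% of the members, against 60.8% and 58.8% of all genes. Quantile normalization moved the median of all genes in CKO minus OPC from -0.05 to -0.10; the share of lower genes among the calls was then 82.4% (14 lower and 3 higher), against 95.2% in the main scaling.

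Of the 7 assembly chaperones, 4 passed in both comparisons with OPCs, 3 lower and 1 higher. These 4 are 57.1%, near the share of all genes called (54% in control minus OPC and 50.6% in CKO minus OPC). Psmg1, Psmg3 and Psmg4 help to build the α ring, and all 3 were lower in both kinds of oligodendrocyte. Psmg4 had signals of 523, 543 and 439.5 in CKO, 454, 394, 410.4 and 520.3 in control oligodendrocytes and 999, 1171, 1068 and 726 in OPCs, so the lowest OPC array was above all 7 oligodendrocyte arrays. It was 2.17-fold lower in control oligodendrocytes than in OPCs (log2 difference -1.12, 95% interval -1.51 to -0.72, adjusted p = 0.000389), and -0.94 in CKO oligodendrocytes (adjusted p = 0.00193).

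Psmg1 had signals of 828, 879 and 1022 in CKO, 893, 822, 1304 and 989 in control oligodendrocytes and 1937, 1824, 2398 and 1269 in OPCs. Only control replicate 3 and OPC replicate 4 crossed. Its differences were -0.87 (control minus OPC, adjusted p = 0.00488) and -0.99 (CKO minus OPC, adjusted p = 0.00385). For Psmg3 the signals were 683, 873 and 783 in CKO, 854, 768, 962 and 774 in control oligodendrocytes and 1832, 1164, 1217 and 1603 in OPCs, with no overlap. Its differences were -0.76 (adjusted p = 0.00407) and -0.87 (adjusted p = 0.0032).

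Psmg1 and Psmg4 were called in both comparisons under every alternative tried, including without OPC replicates 1 and 4, where the control minus OPC differences were -1.07 and -1.31. Psmg3 was called in control minus OPC under every alternative, and in CKO minus OPC under all but the replicate block (adjusted p = 0.0691). Psmg2, the partner of Psmg1, was not settled: its brightest probe set gave 0.26 (adjusted p = 0.47) and another gave -0.70 (adjusted p = 0.00294 over single probe sets) in control minus OPC. Without OPC replicates 1 and 4 the brightest probe set gave -0.31 (adjusted p = 0.236) there and -0.24 (adjusted p = 0.389) in CKO minus OPC.

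Psmd5, Psmd9 and Psmd10 are chaperones of the 19S base. Psmd10, also known as gankyrin, a protein that binds the retinoblastoma protein too, was the member with the largest positive difference. Its signals were 862, 938 and 867 in CKO, 1160, 1070, 998 and 939 in control oligodendrocytes and 366, 749, 639.9 and 254 in OPCs, so every oligodendrocyte array was above every OPC array. The lowest OPC signals were those of replicates 1 and 4. It was 2.21-fold higher in control oligodendrocytes than in OPCs (log2 1.14, adjusted p = 0.0049) and kept the call without these OPC arrays, at 0.57 (adjusted p = 0.0136). In CKO minus OPC the difference of 0.92 (adjusted p = 0.0232) became 0.35 (adjusted p = 0.0994) without them. Psmd5 and Psmd9 did not pass, with differences of 0.27 and -0.02 in control minus OPC and 0.34 and 0.10 in CKO minus OPC.

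**Figure D2:**
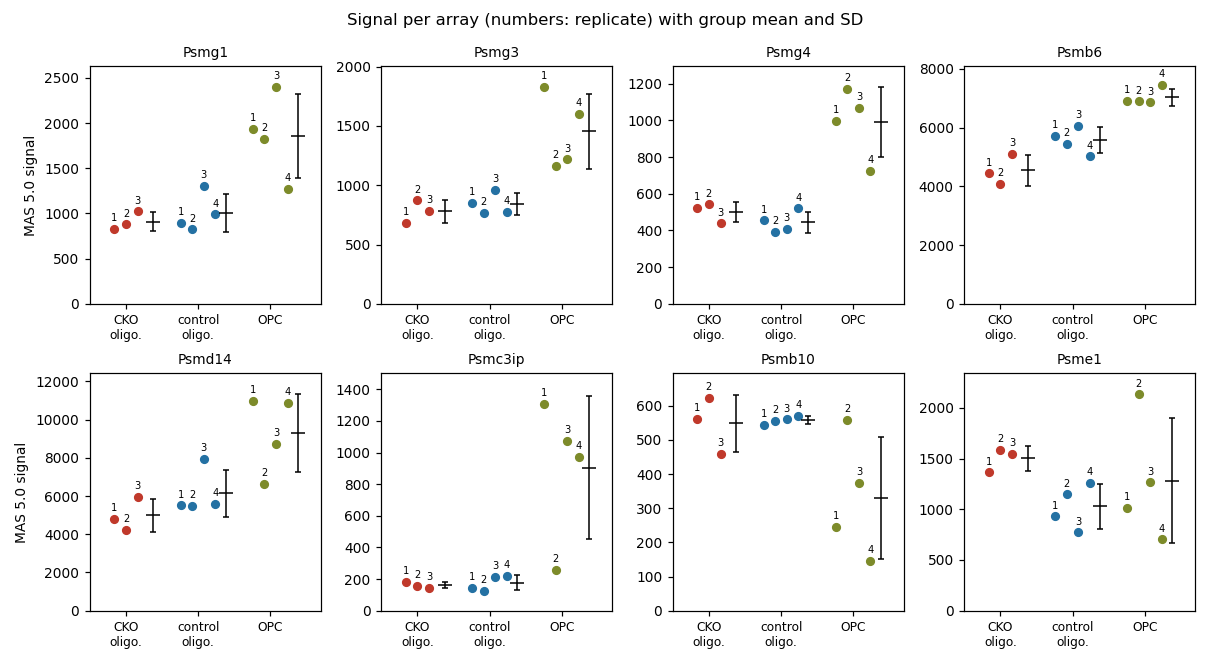
Signals (y axis, MAS 5.0 units, from 0) of 8 members on each array, numbered by replicate, with the group mean and SD beside the points. The 4 OPC points of Psmg3, Psmg4 and Psmb6 lie above all oligodendrocyte points; for Psmc3ip OPC replicate 2 (259) lies near the oligodendrocytes, and for Psmb10 OPC replicates 1 and 4 are the lowest.

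In the constitutive 20S core, 6 of 14 tested subunits were lower in control oligodendrocytes than in OPCs, and 6 were lower in CKO oligodendrocytes. Of all genes, 29.6% and 26.8% were lower in these comparisons. In the α ring, which gates the entrance, the lower subunits were Psma3, Psma5 and Psma6 in control oligodendrocytes, with Psma2 added in CKO oligodendrocytes. Without OPC replicates 1 and 4, Psma3 (adjusted p = 0.133) and Psma5 (0.152) lost the call in control minus OPC, and Psma2 (0.114) and Psma5 (0.0702) in CKO minus OPC. The Psma5 probe set 1424681_a_at gave -0.02 and -0.15 in these comparisons with all arrays, and was called in neither. Psma6 had signals of 7243, 6804 and 8483 in CKO, 7075, 7071, 8538 and 7730 in control oligodendrocytes and 13842, 9220, 10969 and 19954 in OPCs. The OPC arrays were all higher, and the highest were again replicates 1 and 4. Its control minus OPC difference was -0.77 (adjusted p = 0.0077), and -0.41 (adjusted p = 0.0406) without these 2 arrays. The Psma6 probe set 1416506_at gave -0.07 (adjusted p = 0.66 over single probe sets) in control minus OPC. In CKO minus OPC it gave -0.14 (adjusted p = 0.442). Both Psma6 calls were lost with the mean over its probe sets.

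Of the 3 constitutive catalytic subunits, Psmb6 was the one lower in both comparisons, at -0.34 (adjusted p = 0.0313) in control and -0.63 (adjusted p = 0.00191) in CKO oligodendrocytes against OPCs. The control minus OPC call was kept in 13 of 22 alternatives; its adjusted p was 0.0867 without OPC replicates 1 and 4 and 0.102 with the replicate block. The CKO minus OPC call held under every alternative, with a highest adjusted p of 0.0499 under the replicate block. Psmb5, which carries the chymotrypsin-like site and is the target of bortezomib, had signals of 5221, 5693 and 5218 in CKO, 5352, 5407, 4902 and 4383 in control oligodendrocytes and 7707, 6509, 5055 and 7058 in OPCs; OPC replicate 3 lay among the oligodendrocytes. It was lower in control minus OPC (-0.38, adjusted p = 0.045) and had -0.27 (adjusted p = 0.165) in CKO minus OPC. The first call was kept in 5 of 21 alternatives. Psmb7, with the trypsin-like site, had 0.33 (adjusted p = 0.159) and 0.20 (adjusted p = 0.439).

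The interferon-inducible counterparts were near the floor of the array or dim. Psmb8, which replaces Psmb5, had a highest signal of 81.2 on any array, and Psmb9, which replaces Psmb6, of 86.7. Neither probe set reached the filter in any group. Psmb10, which replaces Psmb7, had signals of 562, 624 and 459 in CKO, 544, 556, 561 and 571 in control oligodendrocytes and 245, 558, 374 and 145 in OPCs. The control minus OPC difference was 0.88 (adjusted p = 0.0318), with the 2 lowest values on the OPC arrays of low 5′ to 3′ ratio. Without those 2 arrays the difference was 0.28 (adjusted p = 0.269). CKO and control oligodendrocytes differed by -0.04 (95% interval -0.77 to 0.70).

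Genes of antigen processing and the interferon response were read beside them. Of 8 tested, 6 were higher in control oligodendrocytes than in OPCs, among them Tapbp, which loads peptides onto MHC class I (2.15, adjusted p = 1.06e-05), Ifit3 (1.85), B2m (1.41) and H2-D1 (1.27). Irf1, also listed among the regulators, was lower, a call lost without OPC replicates 1 and 4 (adjusted p = 0.0689). In control minus OPC 87.5% of the 8 were called, against 54% of all genes. In CKO minus OPC, 5 were higher (62.5%, against 23.8% of all genes). Between CKO and control oligodendrocytes 1 of the 8 passed (12.5%, against 7.53% of all genes). It was H2-K1, an MHC class I heavy chain, which was lower (-1.14, adjusted p = 0.00816). Its probe set can share signal with other class I genes, and the mean over its probe sets was -0.28 (adjusted p = 0.553).

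In the 19S cap, 3 of 6 ATPases were lower in control oligodendrocytes than in OPCs (Psmc2, Psmc3 and Psmc4) and 5 of 6 in CKO oligodendrocytes, where Psmc1 and Psmc6 were added and Psmc5 was the exception (0.08, adjusted p = 0.698). These are 50% and 83.3%, where 29.6% and 26.8% of all genes were lower. Without OPC replicates 1 and 4, all 3 calls in control minus OPC were lost (adjusted p = 0.0641 for Psmc2, 0.0700 for Psmc3 and 0.327 for Psmc4). In CKO minus OPC, Psmc1 (0.0572) and Psmc4 (0.199) were lost then. The Psmc2 probe set 1426611_at gave -0.24 in control minus OPC and -0.36 in CKO minus OPC, and was called in neither. The Psmc4 probe set 1416291_at gave -0.07 and -0.12, and was called in neither. The Psmc6 probe set 1417770_s_at was called lower in both, at -0.74 (adjusted p = 0.00293 over single probe sets) and -1.04 (adjusted p = 0.000664). Its probe set 1417769_at gave -0.31 and -0.54, and was called in neither. With the mean over its probe sets Psmc6 was called in control minus OPC too (adjusted p = 0.0182). Psmc3 had signals of 3660, 3598 and 4560 in CKO, 4588, 4217, 4798 and 4005 in control oligodendrocytes and 6268, 5035, 6736 and 6517 in OPCs, with all OPC arrays highest. Its differences were -0.47 (adjusted p = 0.0142) and -0.64 (adjusted p = 0.0047). Psmd2, the scaffold subunit of the base, was lower in both (-0.43, adjusted p = 0.0407, and -0.56, adjusted p = 0.0186). Without OPC replicates 1 and 4 it had -0.24 (adjusted p = 0.281) and -0.37 (adjusted p = 0.123), and neither passed. The ubiquitin receptor Psmd4 was lower in CKO minus OPC (-0.47, adjusted p = 0.0313) and had -0.27 (adjusted p = 0.148) in control minus OPC. Its probe set 1425859_a_at gave 0.69 in CKO minus OPC (adjusted p = 0.19 over single probe sets).

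In the lid, 2 of 8 subunits were lower in both comparisons, Psmd11 and Psmd14 (25%, against 29.6% and 26.8% of all genes). The Psmd11 calls rest on its brightest probe set. In control minus OPC 1429370_a_at gave 0.18, 1440253_at -0.37 and 1456059_at -0.002, and none of these was called in either comparison. Both Psmd11 calls were lost with the mean over its probe sets. Psmd14 is the protease that cuts ubiquitin chains from the substrate. Its signals were 4798, 4231 and 5950 in CKO, 5518, 5501, 7964 and 5585 in control oligodendrocytes and 10970, 6639, 8730 and 10875 in OPCs. All CKO arrays were below all OPC arrays, while control replicate 3 lay above OPC replicate 2. The difference was -0.88 in CKO minus OPC (adjusted p = 0.00455), a call held under every alternative, and -0.59 in control minus OPC (adjusted p = 0.023), where it was -0.33 (adjusted p = 0.216) without OPC replicates 1 and 4. Psmd7, the partner of Psmd14, had 0.75 (adjusted p = 0.0824) and 0.90 (adjusted p = 0.059); its OPC signals were 1376 and 848 on replicates 1 and 4 against 2970 and 3173 on replicates 2 and 3.

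Among activators and the inhibitor, 1 of 4 was lower in both comparisons (25%, against 29.6% and 26.8% of all genes). It was Psme4, also known as PA200, a nuclear activator (-0.63 in both, adjusted p = 0.00574 and 0.00943). The call rests on its brightest probe set: 1426824_at gave 0.87 in control minus OPC (adjusted p = 0.0605 over single probe sets) and 0.67 in CKO minus OPC (adjusted p = 0.171). The mean over its probe sets was 0.068 (adjusted p = 0.742) and -0.029 (adjusted p = 0.902). Psme3, the nuclear 11S activator, had -0.10 in both, and Psmf1, an inhibitor of the core, 0.28 and 0.31, which did not pass. The Psmf1 probe set 1424369_at was called higher in both, at 0.80 (adjusted p = 0.0195 over single probe sets) and 0.97 (adjusted p = 0.0117). OPC replicates 1 and 4 were its lowest arrays. Probe sets 1424370_s_at (0.11 and 0.28) and 1424371_at (-0.18 and 0.30) were called in neither. With the mean over its probe sets Psmf1 was called higher in CKO minus OPC (adjusted p = 0.0151) and not in control minus OPC.

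Psmc3ip, the recombination partner, had the largest difference among the 45 genes. Its signals were 183, 156 and 144 in CKO, 144, 126, 215 and 219.5 in control oligodendrocytes and 1307, 259, 1074 and 973 in OPCs. OPC replicate 2, the array with the low cell cycle level, was the OPC array close to the oligodendrocytes. The differences were -2.08 (adjusted p = 0.00151) and -2.17 (adjusted p = 0.00197), and -2.59 and -2.67 without that array. Psme3ip1 had 0.20 and 0.15 and did not pass.

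Probe sets of the same gene gave unequal differences where OPCs were involved. Of 18 genes with several tested probe sets, 4 had probe sets that differed by over 1 log2 unit in control minus OPC (Psmb3, Psmd4, Psmd6 and Psme4), 5 in CKO minus OPC (Psme3 added) and 0 in CKO minus control; the threshold also took opposite signs at an unadjusted p under 0.05. Without OPC replicates 1 and 4 these counts were 1 (Psmd6), 2 (Psmd6 and Psme3) and 0.

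Psmb3, a non-catalytic β subunit, shows the pattern. Probe set 1460198_a_at had signals of 3902, 3168 and 4182 in CKO, 4726, 4282, 4963 and 3948 in control oligodendrocytes and 9004, 5851, 7048 and 11692 in OPCs. Probe set 1417052_at had 4450, 4000 and 4829 in CKO, 5370, 5048, 5486 and 4082 in control oligodendrocytes and 3538, 5853, 5106 and 2056 in OPCs. OPC replicates 1 and 4 were thus the highest arrays with the first and the lowest with the second. The control minus OPC difference was -0.86 (adjusted p = 0.00371) with the first and 0.37 (adjusted p = 0.273 over single probe sets) with the second.

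The log2 ratio of the 2 Psmb3 probe sets lay between -0.33 and -0.05 on the 7 oligodendrocyte arrays, was -0.00030 and 0.46 on OPC replicates 2 and 3, and was 1.34 and 2.50 on replicates 1 and 4. For Psme4 the ratio of its brightest probe set to 1426824_at was 0.63 to 1.11 on the oligodendrocyte arrays and 2.60 and 3.63 on OPC replicates 1 and 4. In 13 of 25 such pairs, OPC replicates 1 and 4 were both outside the range of the other 9 arrays on the same side. Over the 70 tested probe sets, OPC replicates 1 and 4 were both below the 9 other arrays at 14 and both above them at 14. The same counts were not made over all probe sets of the array. It thus cannot be said that they are particular to proteasome genes.

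**Figure D3:**
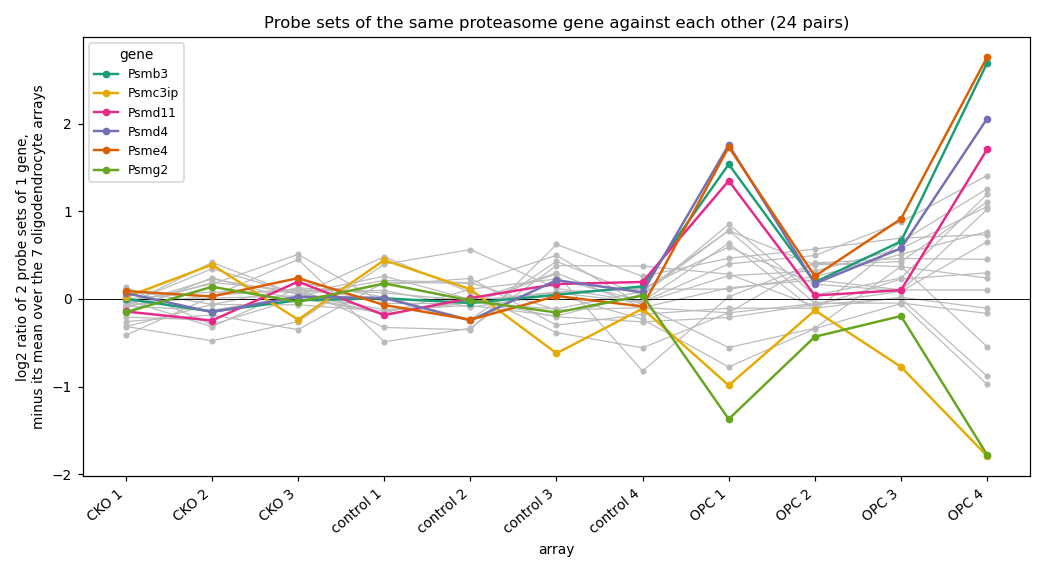
Log2 ratio of 2 probe sets of the same gene (y axis), less its mean over the 7 oligodendrocyte arrays, for 24 pairs on 11 arrays (x axis); each line is 1 pair, 6 genes are coloured, and Psmd6 is not drawn. On OPC replicates 1 and 4 the coloured lines lie above 0 for Psmb3, Psmd4, Psmd11 and Psme4 and below 0 for Psmg2 and Psmc3ip.

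The probe sets of the lid subunit Psmd6 gave unequal differences from OPCs, also without OPC replicates 1 and 4. They parted on the oligodendrocyte arrays. The log2 ratio of 1423697_at to 1423696_a_at was 0.85 to 4.39 there and -1.03 to 0.24 on the OPC arrays. Probe set 1423697_at had signals of 5820, 5624 and 6500 in CKO, 6677, 6616, 7687 and 6255 in control oligodendrocytes and 5688, 8311, 9837 and 5250 in OPCs. Probe set 1423696_a_at had 576, 314 and 294 in CKO, 3687, 321, 429 and 485 in control oligodendrocytes and 7488, 8729, 8321 and 10706 in OPCs. With the second, every OPC array was above every oligodendrocyte array, and control replicate 1 lay between the groups.

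The first probe set gave -0.05 (adjusted p = 0.839) in control minus OPC and -0.24 (adjusted p = 0.355) in CKO minus OPC. Without OPC replicates 1 and 4 it was called lower in both, at -0.41 (adjusted p = 0.0311) and -0.60 (adjusted p = 0.00811). The second gave -3.59 (adjusted p = 0.000625 over single probe sets) and -4.48 (adjusted p = 0.00027). Without control replicate 1 its control minus OPC difference was -4.37, and its CKO minus control difference was -0.89 with that array and -0.10 without it, and passed in neither case. What distinguishes the transcripts that the 2 probe sets measure was not examined here.

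**Figure D4:**
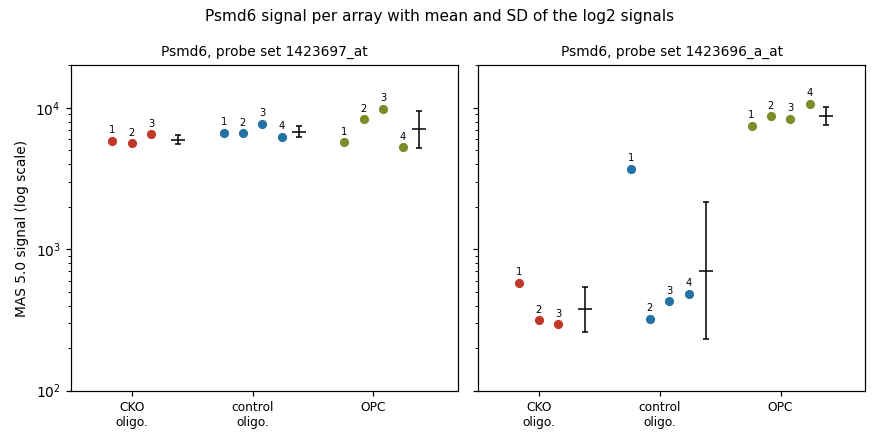
Signals of the 2 Psmd6 probe sets (y axis, log scale) on each array, numbered by replicate, with the mean and SD of the log2 signals. With 1423697_at the 3 groups overlap; with 1423696_a_at the OPC arrays lie at 7488 and above, 6 of the 7 oligodendrocyte arrays at 576 and below, and control replicate 1 at 3687.

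Psme3 was the other gene that stayed discordant without the OPC arrays of low 5′ to 3′ ratio. Its probe set 1418078_at had signals of 1061, 1816 and 1185 in CKO, 827, 553, 1161 and 1012 in control oligodendrocytes and 854, 582, 609.7 and 518 in OPCs. It was higher in CKO oligodendrocytes than in OPCs (1.05, adjusted p = 0.00994 over single probe sets), with no overlap between those groups. The representative probe set of Psme3 had -0.10 there (adjusted p = 0.737 over single probe sets).

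Proteasome partners outside the symbol pattern were tested in the same fit. Of 10, 0 passed in CKO minus control (1 at an unadjusted p under 0.05), and the same 4 passed in both other comparisons. The 4 are 40%, against 54% of all genes in control minus OPC and 50.6% in CKO minus OPC. Sem1, a small lid subunit, Txnl1, a thioredoxin bound to the cap, and Ecpas, an adaptor of the proteasome, were lower (control minus OPC -0.58, -0.74 and -0.55), and Zfand2a, a stress-induced partner, was higher (1.26, adjusted p = 3.41e-05).

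Regulators of proteasome genes passed in both directions. Of 12 tested, 0 passed in CKO minus control (4 at an unadjusted p under 0.05, 33.3% against 21.2% of all genes), 6 in control minus OPC (3 higher and 3 lower) and 7 in CKO minus OPC (5 higher and 2 lower). The 6 and 7 are 50% and 58.3%, near the 54% and 50.6% of all genes. In CKO minus control with the replicate block, which drops control replicate 4, Nfe2l3 was called lower and Ngly1 (adjusted p = 0.034) and Irf1 (adjusted p = 0.0285) higher. That fit called 22.2% of all genes. With only the oligodendrocyte groups fitted, which called 15.8% of all genes, Ngly1 had an adjusted p of 0.0187 and Irf1 of 0.108. Nfe2l2, known as NRF2, an activator of antioxidant genes, had signals of 1838 to 2409 in CKO, 2066 to 2551 in control oligodendrocytes and 1011, 329, 991 and 957 in OPCs. It was higher in both kinds of oligodendrocyte (1.59, adjusted p = 0.00117, and 1.48, adjusted p = 0.00306). Its partner Mafk was higher too (0.78 and 0.97), and Nfyb and Nfyc, subunits of the factor that binds CCAAT boxes, were lower (-1.01 and -1.12 in control minus OPC).

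Nfe2l1, the factor that restores proteasome gene expression, had signals of 1209, 1518 and 851 in CKO, 1041, 779.8, 674 and 636 in control oligodendrocytes and 624, 774, 450.2 and 498 in OPCs. It was higher in CKO oligodendrocytes than in OPCs (1.00, adjusted p = 0.00685). In CKO minus control the groups overlapped, and the difference of 0.59 had an adjusted p of 0.21.

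Nfe2l3, the related factor NRF3, had signals of 119.8, 96.7 and 81.1 in CKO, 662, 867, 1757 and 799.8 in control oligodendrocytes and 21.2, 1006, 117 and 35.1 in OPCs. All control oligodendrocyte arrays were above all CKO arrays, and the OPC array in their range was replicate 2, the one with a high Myrf signal. The CKO minus control difference was -3.08 (95% interval -4.98 to -1.18). Its adjusted p was 0.053 in the fit of all arrays, 0.00245 with the replicate block (without control replicate 4) and 0.000312 when only the oligodendrocyte groups were fitted, and it ran up to 0.165 over the 22 alternatives, of which 8 called it. It was higher in control oligodendrocytes than in OPCs (2.93, adjusted p = 0.00947), a call lost without OPC replicates 1 and 4 (highest adjusted p 0.121).

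NRF2 target genes and substrate delivery factors were read beside them. Of 6 NRF2 targets tested, Hmox1, the inducible haem oxygenase, and Srxn1, a sulfiredoxin, were higher in control oligodendrocytes than in OPCs (2.40 and 1.93), and with Gclm 3 were higher in CKO oligodendrocytes. These are 33.3% and 50% of the 6, where 24.4% and 23.8% of all genes were higher. In CKO minus control 0 of 6 passed (3 at an unadjusted p under 0.05, 50% against 21.2% of all genes). Among 11 delivery factors, of which 0 passed in CKO minus control at either threshold, Sqstm1, the autophagy receptor p62, was higher in control (1.28, adjusted p = 0.00747) and CKO oligodendrocytes (1.87, adjusted p = 0.0014) than in OPCs, and the ubiquitin shuttle proteins Ubqln2 and Ubqln4 and the adaptor Faf1 were lower in both. Sqstm1 signals were 7135 to 7625 in CKO, 4272 to 5753 in control oligodendrocytes and 1843, 4064, 2352 and 918 in OPCs; the CKO arrays lay above all control arrays, but the difference of 0.59 did not pass (adjusted p = 0.393). Of 10 genes for ubiquitin and its activation, 4 passed in control minus OPC (Ube2d1, Ube2n and Ube2r2 higher, Ube2k lower), 4 in CKO minus OPC and 0 in CKO minus control (1 at an unadjusted p under 0.05). Against OPCs, 40% of these genes were called in both comparisons, and 45.5% and 36.4% of the delivery factors. Of all genes, 54% and 50.6% were.

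**Figure D5:**
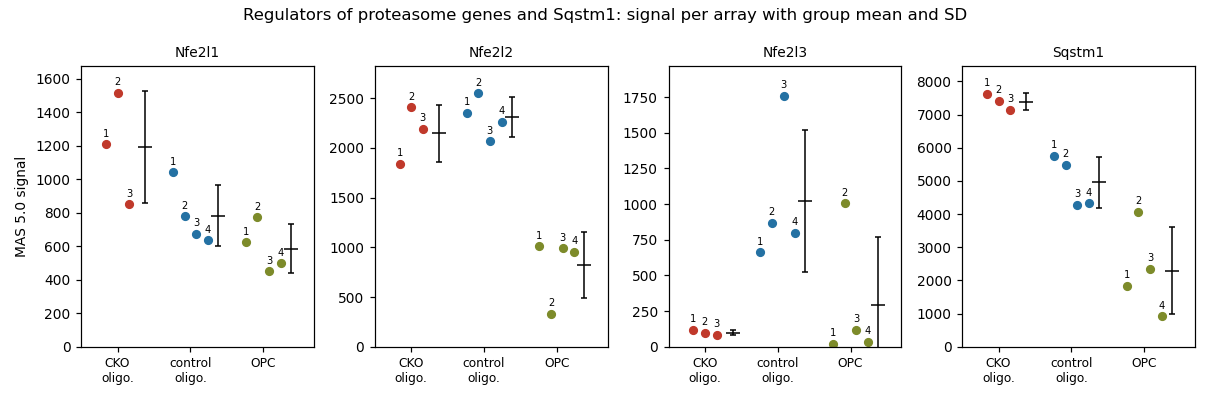
Signals (y axis, MAS 5.0 units, from 0) of Nfe2l1, Nfe2l2, Nfe2l3 and Sqstm1 on each array, numbered by replicate, with group mean and SD (bars that pass below 0 end at the axis). The CKO points of Nfe2l3 lie at 81.1 to 119.8, below the control oligodendrocytes at 662 to 1757, and OPC replicate 2 stands alone among the OPCs at 1006.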

How the data were processed

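The deposited values are MAS5 signal intensities from 11 Mouse Genome 430 2.0 arrays. The authors computed these intensities in GCOS 1.3, per the submitters' processing notes, scaled to a target of 500; RNA (1 µg) was labelled in 2 amplification cycles, per the labels' protocols. Linear signals were used as log2(signal + 16). Probe sets needed a signal of 200 on 3 arrays, and the brightest probe set stood for each gene. limma 3.58.1 in R 4.3.3 fitted the means of the 3 groups with a variance trend, and p-values were Benjamini-Hochberg adjusted over 10069 genes, or over probe sets where single ones are named. The fit was tested on simulated data. Probe sets were named from GEO's platform table, updated by Entrez identifier.

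CKO and control arrays with the same replicate number deviated together (correlations 0.184, 0.171 and 0.312), so that fit was also blocked by number. Members and lists were chosen with earlier results of these data known. Named genes were those called, the catalytic subunits, members whose probe sets disagree and list genes with the largest differences; levels of different probe sets were not compared, so no brightest or dimmest member is named. Alternatives changed pseudocount, filter, normalization, probe set choice, variance model, block and arrays.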

Additional observations from a re-analysis of the deposited data

Results flagged for a closer look

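In 92 groups of 4 arrays (46 probe sets, control oligodendrocytes and OPCs) 4 held an array far from the other 3, where chance alone flags about 1 group in 20. The 46 are the probe sets of the 45 tested genes and the Psmd6 probe set 1423696_a_at, which was added by name. The flag of that added probe set thus cannot be set against the chance rate. Psmb6 was 7458 on OPC replicate 4, against 6862 to 6920 on the others. Psmd14 was 7964 on control replicate 3, against 5501 to 5585. Psmd9 was 767.9 on control replicate 4, against 917.4 to 943.9. The Psmd6 probe set 1423696_a_at was 3687 on control replicate 1, against 321.4 to 485.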

How the results depend on the processing

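The 0 calls in CKO minus control became 1 (Psme1) with the replicate block and stayed 0 under the 22 other alternatives, leaving out arrays included. Numbers did not pair OPCs with oligodendrocytes. The block, which uses OPC replicates 1 to 3 there, gave 9 calls in CKO minus OPC (20%, against 30.7% of all genes). With only probe sets lacking the suffixes _s_at, _x_at and _a_at, 36 members remained tested, and the CKO minus OPC median was -0.13. Of these, 9 were called in control minus OPC (25%, against 52.6% of all genes) and 11 in CKO minus OPC (30.6%, against 49.7%). Without probe sets of those suffixes, Psmb3 was 0.37 and 0.20 and Psmg2 -0.70 and -0.60 in control and CKO minus OPC. Averaged over probe sets, Psme4 in control minus OPC was 0.068 and Psmd4 in CKO minus OPC 0.11. Leaving out 1 array gave 10 to 20 calls in control minus OPC, where 45.8% to 60.8% of all genes were called. It gave 12 to 25 in CKO minus OPC, where 39.2% to 58.8% of all genes were called. Psmc3ip, Psmd10, Psmg1, Psmg3 and Psmg4 (control minus OPC) and Psmb6, Psmc3ip, Psmd14, Psmg1 and Psmg4 (CKO minus OPC) were called under every alternative that tested them. Psmb8 and Psmb9, under 100 on every array, allow no fold. The probe set counts without OPC replicates 1 and 4 and the Psmd6 probe set without control replicate 1 were added after seeing the data.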
